A study of Capra hircus and Bos taurus with 7 samples.

Results

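The miR-23, miR-24 and miR-27 microRNAs (miRNAs) were examined in extracellular vesicles, small membrane-enclosed particles shed by cells, isolated from milk powders. The rows whose name, without the bovine prefix and the arm, is miR-23a, miR-23b, miR-24, miR-27a or miR-27b were taken, and 5 of the 364 rows of the tables met this rule: bta-miR-23a, bta-miR-24-3p, bta-miR-27b, bta-miR-27a-3p and bta-miR-27a-5p, written here without the prefix. No row analysed here is named miR-23b. The libraries comprised 3 from goat powder labelled whole, 3 from goat powder labelled skimmed (each with the letters A to C) and 1 from a commercial bovine powder, all reconstituted in warm water and separated by size exclusion chromatography. Neither group carries a treatment beyond this, and the sources used here give no breed, age, number of animals or lot. Nothing in the labels says that libraries of a powder came from separate packs or isolations, so a p-value here speaks of the spread among these libraries alone, which may be technical. Libraries held 5675489 to 11963849 miRNA reads, so that 1 read was worth 0.0836 to 0.176 CPM (counts per 1000000 miRNA reads) and counting error was small for all but the rarest member.

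These miRNAs are made from a pair of paralogous clusters of vertebrate genomes, an a cluster with miR-23a, miR-27a and a copy of miR-24, and a b cluster with miR-23b, miR-27b and another copy of miR-24. Each cluster is transcribed as one primary RNA, from which the hairpins are cut, and both miR-24 copies give the same mature strand. The a and b forms of miR-23, and those of miR-27, share their seed and differ little elsewhere, so they are expected to bind largely the same target messages. Among the textbook targets are glutaminase for miR-23 and PPARG, the master regulator of adipocyte differentiation, for miR-27, while miR-24 is known for repressing cell cycle and apoptosis genes. In the RefSeq goat gene table of assembly ARS1.2, MIR23A and MIR27A are neighbours within the span of ZSWIM4, and MIR23B, MIR27B and MIR24 are neighbours within the span of C8H9orf3. The deposited names follow bovine miRNAs and the sources used here name no build, so no coordinates are given.

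Because the a and b forms are near-identical, the division of reads between them depends on the counting, on which the sources used here are silent. The estimated reads of miR-23a, miR-24-3p, miR-27b and miR-27a-3p were not whole numbers in any of the 7 libraries (tolerance 1e-06). Fractional values were common in these tables, where 36.9% to 46.7% of the values above 0 were whole numbers. They were also seen for miR-24-3p, whose gene copies give the same mature strand. Whether the fractions come from reads shared between the a and b forms was not tested. The levels of miR-27a-3p and miR-27b, and of miR-23a without a row for miR-23b, remain uncertain as a and b forms because of their likeness. Comparisons of CPM between miRNAs also carry the ligation preferences of small RNA libraries, whereas mature miRNAs of about equal length need no length correction.

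The most abundant member in each of the 7 libraries was bta-miR-23a. It stood at 14359, 15900 and 16018 CPM in whole libraries A, B and C, at 13383, 11994 and 13460 CPM in the skimmed libraries, and at 7280 CPM in the bovine library. By its mean over the goat libraries it ranked 18 among the 364 miRNAs, and it made up 61.3% to 70.5% of the reads of the 5 members in goat and 63.8% in bovine. The share of miR-23a among the members was thus similar in the bovine library although its level there was lower than in any goat library.

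The strand shared by both clusters, bta-miR-24-3p, stood at 3214, 3151 and 2764 CPM in the whole libraries, at 2851, 3568 and 3989 CPM in the skimmed libraries and at 1433 CPM in the bovine library. Whole and skimmed libraries overlapped, with skimmed C the highest and whole C the lowest. The b cluster's bta-miR-27b stood at 3852, 2236 and 4088 CPM in whole, at 3151, 2897 and 3006 CPM in skimmed and at 2640 CPM in bovine. Here whole B was the lowest goat library, whole A and C were the highest, and the skimmed libraries lay between them. By goat mean miR-24-3p and miR-27b held the neighbouring ranks 45 and 46, at 3256 ± 459 and 3205 ± 674 CPM (SD, n = 6), a difference smaller than the spread between libraries.

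The a cluster's miR-27a-3p was less abundant than miR-27b in every library. It stood at 1614, 1206 and 1535 CPM in whole, at 735, 1109 and 1023 CPM in skimmed, and at 51.6 CPM in bovine. All 3 whole libraries lay above all 3 skimmed libraries, and the bovine library lay far below both. The other strand of the same hairpin, miR-27a-5p, which is usually the passenger strand, had 1, 553.5 and 1883.5 reads in whole A, B and C, 859, 1 and 486 reads in skimmed A, B and C, and 3 reads in bovine. Both powders thus held a library with a single read beside libraries with at least 486, and miR-27a-5p took 0.00944% to 11.2% of the miR-27a reads over the goat libraries. In bovine it took 1.01% (exact Clopper-Pearson 95% interval 0.210% to 2.93%, which covers counting error only, since PCR copies cannot be told from separate molecules).

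**Figure D1:**
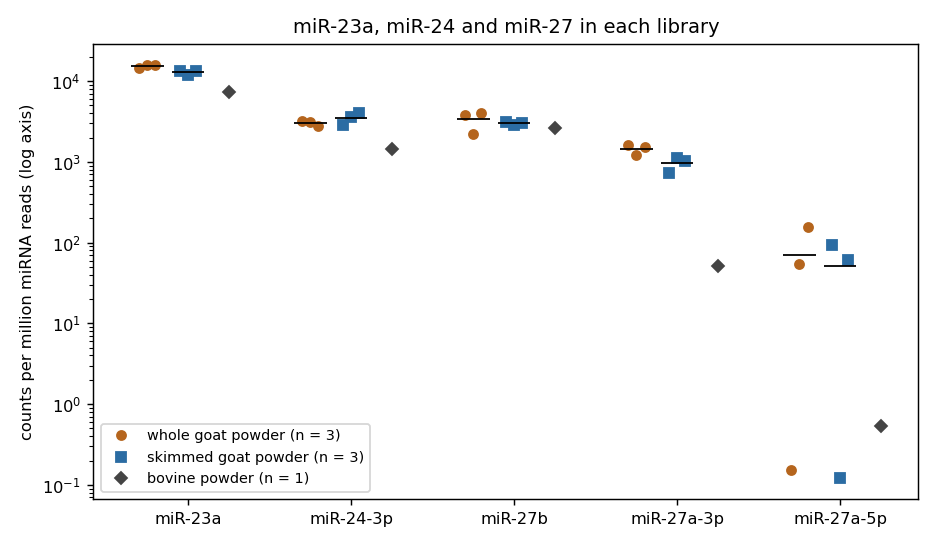
Level of each of the 5 miRNAs in each library, in CPM on a log axis; points are libraries (goat libraries A to C from left to right) and bars are the means of whole and skimmed goat powder (n = 3 each). miR-23a leads in every library, miR-27a-3p at 51.6 CPM in bovine lies below its goat range of 735 to 1614 CPM, and miR-27a-5p is at a single read in whole A and skimmed B.

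The order of the mean levels was miR-23a, miR-27b, miR-24-3p, miR-27a-3p and miR-27a-5p in whole powder and in the bovine library. In skimmed powder miR-24-3p (3470 ± 575 CPM, SD, n = 3) came before miR-27b (3018 ± 127 CPM). These neighbours did not differ beyond their spread in whole powder either, at 3043 ± 243 CPM for miR-24-3p and 3392 ± 1008 CPM for miR-27b (SD, n = 3). The steps from miR-23a to the next member and from miR-27a-3p to miR-27a-5p were larger than the spread of the libraries in both powders.

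The next comparison asked whether the powder labelled skimmed differed from that labelled whole. None of the 5 members passed the threshold (0.05 for the adjusted p) in the quasi-likelihood test of edgeR over 209 miRNAs, of which 0.478% passed in either direction. Only 1 member (miR-27a-3p) had an unadjusted p under 0.05, and DESeq2's Wald test and limma-voom called 0 of 5. All 5 members were among the 209 tested. Their log2 fold changes had a median of -0.16 with 4 of 5 below 0, against a median of 0.03 with 96 of 209 below 0 over all tested miRNAs. The labels do not tie both powders to the same milk, so fat removal and other differences between powders cannot be told apart. Nor can fewer vesicles of a kind and less of a miRNA per vesicle.

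The member with the lowest unadjusted p was miR-27a-3p, whose level was 1452 ± 216 CPM in whole powder against 956 ± 196 CPM in skimmed powder (SD, n = 3). Its log2 fold change was -0.52 ± 0.21 (SE), with a 95% interval of -1.01 to -0.04, an unadjusted p of 0.038 and an edgeR adjusted p of 0.38. It ranked 20 by p among the 209, of which 10.5% had an unadjusted p under 0.05, 4.78% with skimmed lower. The adjusted p ranged from 0.18 to 0.66 over the other fits, and the log2 fold change from -0.67 to -0.41.

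For miR-23a the means were 15425 ± 925 CPM in whole powder against 12945 ± 825 CPM in skimmed powder (SD, n = 3). The TMM-scaled log2 fold change was -0.16 ± 0.11 (SE), with a 95% interval of -0.41 to 0.09 and an edgeR adjusted p of 0.70. Over the scalings tried it was -0.25 with library totals and -0.19 with DESeq2 size factors, and it was -0.10 without skimmed B. The powders did not overlap in CPM for miR-23a and miR-27a-3p, both lower in skimmed. Of the 209 tested miRNAs 20.1% did not overlap, and 10.5% did so with skimmed lower. With TMM scaling the powders overlapped for neither. Under DESeq2 size factors, a scaling added after the data were seen for this count, the powders overlapped for miR-23a and still did not for miR-27a-3p.

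On the other side of 0 stood miR-24-3p, with a log2 fold change of 0.28 ± 0.13 (SE), a 95% interval of -0.03 to 0.58 and an edgeR adjusted p of 0.52, and it stood at 0.17 without skimmed C. For miR-27b the log2 fold change was -0.08 ± 0.23 (SE), with a 95% interval of -0.61 to 0.45 and an edgeR adjusted p of 0.96. Single whole libraries decided this value, which was -0.34 without whole B, 0.10 without whole C and 0.01 without whole A, against -0.17 without skimmed A and -0.04 without skimmed B. For miR-27a-5p the interval of -5.12 to 4.40 around -0.36 was too wide to read a direction, because of the single reads in whole A and skimmed B.

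**Figure D2:**
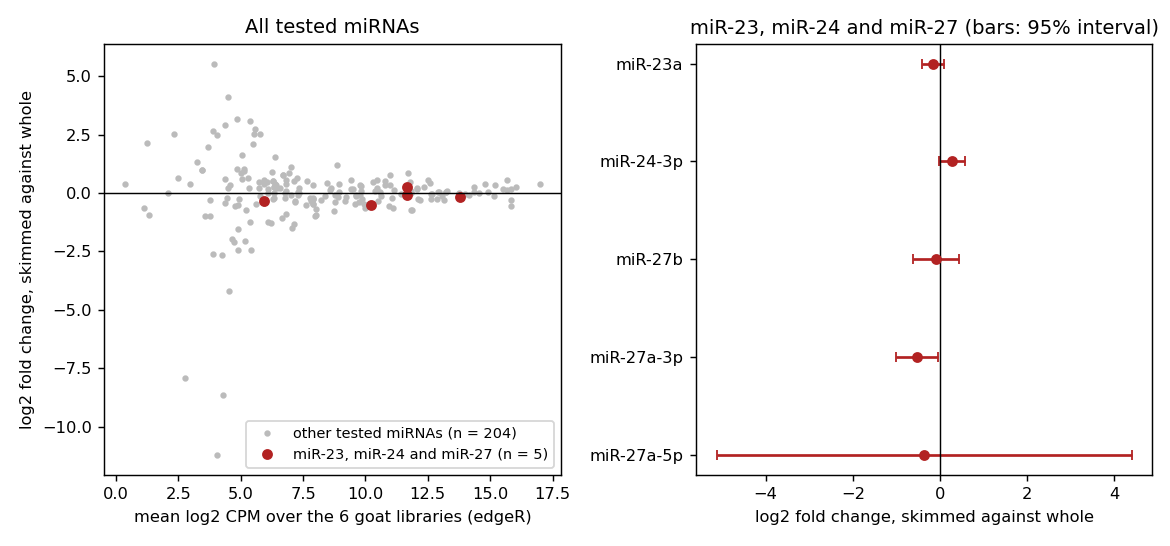
Log2 fold change of skimmed against whole goat powder in edgeR. The left panel sets it against the mean log2 CPM for the 5 miRNAs and the other 204 tested, and the right panel gives the 5 with 95% intervals (3 libraries per powder); the interval of miR-27a-3p, -1.01 to -0.04, ends below 0 before adjustment and those of the other 4 contain 0.

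A ratio of 2 miRNAs within a library does not depend on how the library is scaled, and 6 such ratios could be formed among the 4 members with at least 10 reads in every goat library. The ratio of miR-24-3p to miR-27a-3p was the only one of the 6 in which the powders did not overlap. Its log2 value was 0.99, 1.38 and 0.85 in whole A, B and C and 1.96, 1.69 and 1.96 in skimmed A, B and C. Every skimmed library lay above every whole library, so that miR-24-3p stood further above miR-27a-3p in skimmed powder. The means of 1.08 ± 0.28 and 1.87 ± 0.16 (SD, n = 3) differed by 0.79, with an exact two-sided permutation p of 0.1, the smallest that 3 libraries against 3 allow, and 0.4 after adjustment over the 6 ratios. Among 6105 ratios of the 111 miRNAs that averaged 100 CPM or more and had at least 10 reads in every library, 21.6% did not overlap between the powders, so 1 of 6 was near the background.

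The ratio that sets the b form against the a form, miR-27b to miR-27a-3p, had log2 values of 1.26, 0.89 and 1.41 in whole and 2.10, 1.39 and 1.56 in skimmed. Whole C, at 1.41, lay just above skimmed B, at 1.39, and the other libraries did not cross. As a share, miR-27a-3p made up 29.5%, 35.0% and 27.3% of the miR-27 reads (miR-27a-3p plus miR-27b) in whole and 18.9%, 27.7% and 25.4% in skimmed. The mean share was 30.6% ± 3.98 in whole and 24.0% ± 4.54 in skimmed (SD, n = 3), and the difference of -6.63 percentage points had an exact permutation p of 0.2. Without skimmed A it was -4.09 percentage points, and the log2 ratio of miR-27b to miR-27a-3p then differed by 0.28 in place of 0.49.

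With no row for miR-23b, the cluster of the miR-23a reads is uncertain, and the clusters here follow the row names. Within the a cluster, the log2 ratio of miR-23a to miR-27a-3p was 3.42 ± 0.28 in whole and 3.78 ± 0.38 in skimmed (SD, n = 3, exact permutation p = 0.3). Its goat libraries spanned 8.90-fold to 18.2-fold, and the difference of 0.36 was 0.16 without skimmed A and 0.23 without whole A. The ratio of miR-23a to miR-24-3p was 2.34 ± 0.19 and 1.91 ± 0.28 (exact permutation p = 0.2), and that of miR-24-3p to miR-27b -0.11 ± 0.55 and 0.19 ± 0.29 (exact permutation p = 0.5). The last of these differences, 0.30, ranged from 0.07 without whole C to 0.60 without whole B, and was 0.46 without skimmed A and 0.19 without skimmed C. Between clusters, miR-23a to miR-27b stood at 2.23 ± 0.52 in whole and 2.10 ± 0.06 in skimmed (exact permutation p = 1). Whole B, at 2.83, lay above all other goat libraries in this ratio, and without it the difference turned from -0.13 to 0.17, while it was -0.30 without whole A and -0.27 without whole C.

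**Figure D3:**
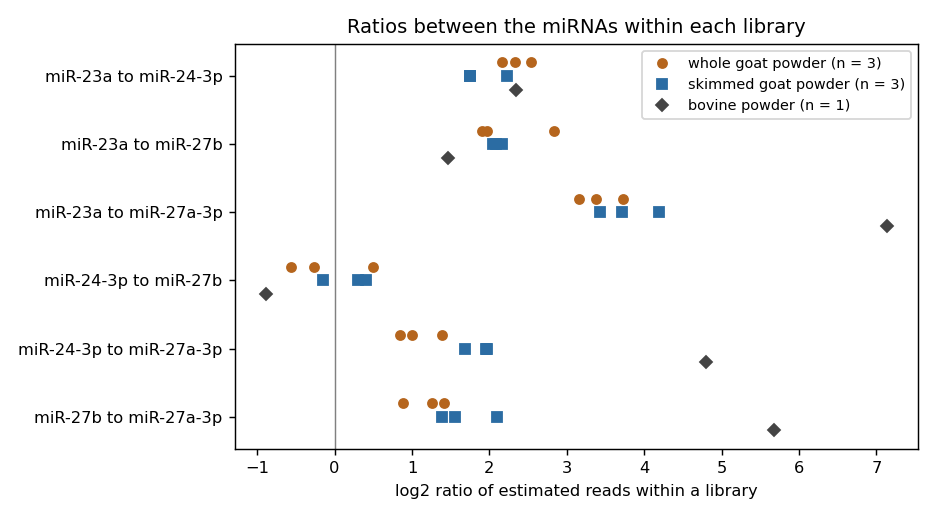
Log2 ratio of the estimated reads of 2 miRNAs within each library, for the 6 pairs of the 4 members with at least 10 reads in every goat library; each point is a library. The powders separate only for miR-24-3p to miR-27a-3p, and the bovine library lies far to the right of the goat libraries in the 3 ratios with miR-27a-3p as the denominator.

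Together the 5 members took 2.30%, 2.25% and 2.46% of the miRNA reads in whole A, B and C, and 2.02%, 1.96% and 2.15% in skimmed A, B and C. The means of 2.34% ± 0.105 and 2.04% ± 0.101 (SD, n = 3) came from libraries that did not overlap between the powders, with an exact two-sided permutation p of 0.1, the smallest possible. Of the 209 tested miRNAs, taken singly, 20.1% did not overlap in CPM, and 10.5% did so with skimmed lower. Most of the members' share was miR-23a, for which the powders overlapped under DESeq2 size factors but not in CPM or with TMM. The bovine library held 1.14% (exact 95% interval 1.13% to 1.15%, counting error only).

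The bovine powder was a single library, so species, product and library cannot be told apart, and no test was made. For the a and b forms of miR-27 it gave unlike values. The level of miR-27b, at 2640 CPM, was within the goat range of 2236 to 4088 CPM. That of miR-27a-3p, at 51.6 CPM from 293 reads (exact Poisson 95% interval 45.9 to 57.9 CPM), was 0.0428 times the goat mean of 1204 ± 328 CPM (SD, n = 6), or 23.3-fold lower. Even the lowest goat library, skimmed A, was 14.3-fold above it.

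In the bovine library miR-27a-3p made up 1.92% of the miR-27 reads (exact 95% interval 1.71% to 2.15%, counting error only), against 18.9% to 35.0% in the goat libraries. The ratio of miR-27b to miR-27a-3p was 51.2-fold in bovine and 1.85-fold to 4.29-fold in goat, a log2 difference of 4.24. Likewise miR-23a, by the row name its partner in the a cluster, stood 141-fold above miR-27a-3p in bovine and 8.90-fold to 18.2-fold in goat. Differences of this kind were common in this library. Of the 6105 ratios, 82.4% lay outside the goat range in bovine, and 27.6% differed from the goat mean by at least as much as miR-27b to miR-27a-3p.

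For miR-27a-5p the bovine level of 0.529 CPM, from 3 reads (exact Poisson 95% interval 0.109 to 1.54 CPM), lay within the goat range of 0.121 to 157 CPM, whose lowest libraries held a single read. For miR-23a, miR-24-3p and miR-27b the bovine level was nearer to the goat mean than for miR-27a-3p. The fold of bovine over the goat mean was 0.513 for miR-23a and 0.440 for miR-24-3p, both below the range of the goat libraries, and 0.824 for miR-27b. Of the 125 miRNAs that averaged 100 CPM or more over the 7 libraries, 54.4% lay below the goat range in bovine and 28% above it, and 25.6% were at most 0.1 times the goat mean. Below the goat range were 3 of the 4 members among these 125, so a bovine level below goat was no rarity, and 28 of the 125 had a lower fold than miR-27a-3p. The size of these folds depends on the scaling, since the median log2 fold of the 125 was -0.73 in CPM, -0.30 with TMM and 0.36 with DESeq2 size factors. With DESeq2 size factors the fold became 1.09 for miR-23a, 0.934 for miR-24-3p, 1.76 for miR-27b and 0.0915 for miR-27a-3p, a shift by 1 common factor that took miR-23a and miR-27b to the other side of 1 and left miR-27a-3p below it. Of the ratios among these 3, which no scaling can move, miR-23a to miR-24-3p was 5.08-fold in bovine, within the goat range of 3.36-fold to 5.79-fold. The other 2 lay below it, with miR-23a to miR-27b at 2.76-fold against 3.73-fold to 7.11-fold and miR-24-3p to miR-27b at 0.543-fold against 0.676-fold to 1.41-fold.

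**Figure D4:**
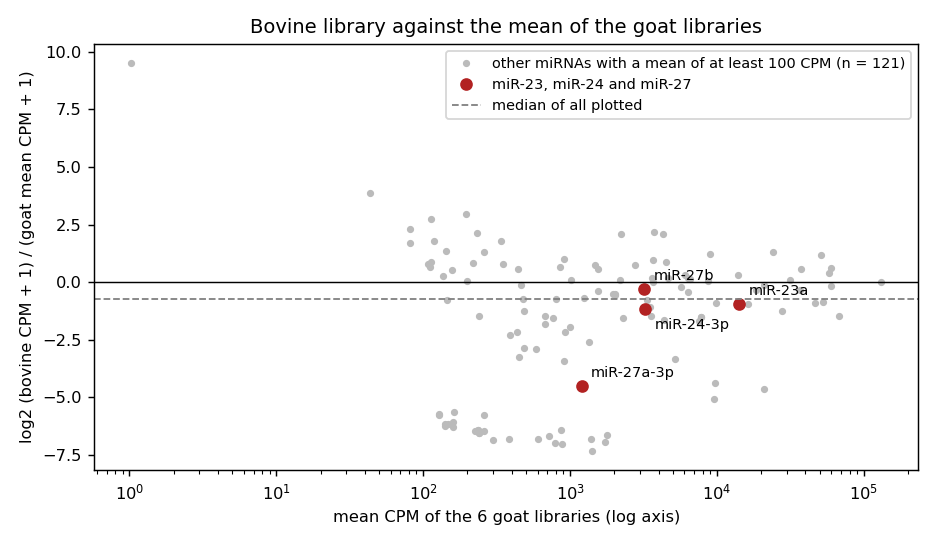
Log2 fold of the bovine library over the mean of the 6 goat libraries (each CPM plus 1) against the goat mean on a log axis, for the 125 miRNAs that averaged 100 CPM or more. miR-23a, miR-24-3p and miR-27b lie near the dashed median of -0.73, and miR-27a-3p lies well below it, with 28 of the 125 lower still.

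Markers of cell types that milk may hold were set beside this difference. The epithelial list, led by miR-148a, miR-200c and miR-200b and with all 7 names present, took 14.4% to 16.8% of goat and 13.5% of bovine reads. The leukocyte list, led by miR-155, miR-223 and miR-142-5p and with 5 of 5 names present, took 0.275% to 0.338% of goat reads and 0.0105% of bovine reads, where miR-150 and miR-142-3p were at 0. The stromal and endothelial list, with 3 rows for its 7 names (miR-143, miR-145 and miR-126-3p), took 0.149% to 0.246% in goat and 0.00172% in bovine, with miR-126-3p at 0 in bovine and in every whole library. Erythroid markers were represented by miR-486 alone of 3 names, at 0.00156% to 0.00728% in goat and 1.76e-05% in bovine. Markers of muscle, liver and nerve (miR-1, miR-122 and miR-124a, 3 of 5 names) took 5.85e-05% to 0.0120% in goat and 3.52e-05% in bovine, where miR-122 and miR-124a were at 0. As a percent of reads, the sum of every list thus lay below its goat range in bovine, as did miR-27a-3p. The epithelial members went both ways. Relative to the goat mean, miR-200c stood at 1.48 and miR-200b at 1.05. Below the goat mean were miR-148a (0.542), miR-375 (0.414), miR-200a (0.739), miR-141 (0.696) and miR-429 (0.601). Over the goat mean, miR-155 stood at 0.00553, miR-223 at 0.00823 and miR-143 at 0.00948, but miR-142-5p at 0.360. The values of miR-486 (0.00480) and miR-1 (0.00879) were as low, but rested on very few reads. In bovine, where 1 read was worth 0.176 CPM, miR-486 stood at 0.176 CPM and miR-1 at 0.352 CPM. Of the 125 miRNAs that averaged 100 CPM or more, 25.6% were at most 0.1 times the goat mean. The part of the markers in the low level of miR-27a-3p was not tested. Between the goat powders the leukocyte list took 0.275% to 0.287% in whole and 0.316% to 0.338% in skimmed, and the stromal and endothelial list 0.149% to 0.165% and 0.169% to 0.246%. Of the 209 tested miRNAs, taken singly, 20.1% did not overlap between the powders in CPM. The sum of the muscle, liver and nerve markers lay higher in skimmed without overlap, at 0.00375% to 0.0120% against 5.85e-05% to 0.00271% in whole. The epithelial and erythroid sums overlapped. The leukocyte and stromal sums both lay higher in skimmed without overlap too, led by miR-223, miR-155 and miR-143. Their members went both ways, with 2 of 4 tested leukocyte miRNAs below 0 (miR-142-5p at a log2 fold change of -0.20, and miR-150 at 13.6 ± 5.56 CPM in whole powder against 0.0402 ± 0.0697 CPM in skimmed powder, SD, n = 3) and 1 of 2 stromal ones (miR-145 at -0.56). In edgeR 0 of these 6 passed (3 at an unadjusted p under 0.05, against 22 of all 209 tested). DESeq2's Wald test, which called 12 of the 209, called miR-150. The skimmed mean of miR-150 was below the 0.108 to 0.126 CPM that 1 read was worth in those libraries. The part of these markers in the values of miR-23a and miR-27a-3p was not tested.

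The miRNAs whose levels followed each member most closely over the 7 libraries were found by the root mean square difference of their log2(CPM + 1) profiles, each centred on its own mean, among the miRNAs that averaged 100 CPM or more. Nearest to miR-23a were let-7g (0.10), miR-429 (0.19) and miR-423-3p (0.22), against a median distance of 0.69. For miR-24-3p they were miR-423-3p (0.18), let-7f (0.19) and miR-22-3p (0.20), with a median of 0.77. For miR-27b they were miR-26a (0.19), miR-26c (0.19) and miR-200a (0.25), with a median of 0.71. For miR-27a-3p they were miR-16a (0.32), miR-146b (0.35) and miR-16b (0.39), with a median of 1.46, and these 3 had 458, 828 and 283 CPM in bovine against goat means of 9672, 20890 and 9589 CPM, a fall that the choice by profiles with the bovine library in them required. No member was among the nearest 3 of another member. The profile of miR-27a-5p had no close neighbour, with miR-6119-5p the nearest at 1.88, followed by miR-10a (2.16) and miR-323 (2.61), against a median of 3.03.

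Other miRNAs with functions attributed to these clusters were counted from lists. Among 13 tested miRNAs of lipid metabolism, which include miR-27b and both strands of miR-27a, 0 passed the threshold in either direction between the powders in edgeR (2 at an unadjusted p under 0.05, and 0 in DESeq2 or limma-voom), with a median log2 fold change of 0.06 and 7 of 13 above 0. Over all 209 tested miRNAs 22 had an unadjusted p under 0.05, 113 were above 0 and the median was 0.03. The most abundant were miR-148a, with 51332 ± 11554 CPM in whole powder against 53245 ± 9007 CPM in skimmed powder, and miR-103, at 8493 ± 1045 and 6654 ± 905 CPM (SD, n = 3), followed by miR-27b. In the list of angiogenesis miRNAs, where miR-23a, miR-24-3p and miR-27b were the most abundant members, 0 of 8 tested passed in edgeR (2 at an unadjusted p under 0.05), with a median of -0.31 and 6 of 8 below 0, against 96 of 209 below 0 over all. Of these 8, 4 are miR-23a, miR-24-3p, miR-27b and miR-27a-3p themselves, and 3 of them are among the 6 below 0. DESeq2's Wald test, which called 12 of the 209, called 1 of these 8, miR-296-3p, named after its value was seen. Its level was 39.9 ± 31.9 CPM in whole powder against 0.0821 ± 0.0712 CPM in skimmed powder (SD, n = 3). That skimmed mean was below the 0.108 to 0.126 CPM that 1 read was worth in those libraries. The edgeR adjusted p of miR-296-3p was 0.12. Of 7 names for the other strands and neighbours of the clusters, miR-27a-5p alone had a row.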

How the data were processed

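Small RNA was sequenced from milk powder vesicles as single-end 50 base reads after gel selection, per the labels' protocols. The deposited tables hold estimated counts per mature miRNA, not normalized, under bovine names for both species. Of the aligner, counter, miRNA release and build, the sources used here name none. CPM were computed over all 364 rows. For tests the estimated counts were rounded and fitted with edgeR 4.0.16 (R 4.3.3) on the 6 goat libraries: default filter on low counts (209 miRNAs), TMM (factors 0.928 to 1.067), quasi-likelihood test, Benjamini-Hochberg adjustment at 0.05; the SE is the log2 fold change divided by the square root of F. The fit was tested on simulated data. Alternatives used DESeq2 1.42.0 (without independent filtering) and limma-voom 3.58.1, other scalings and filters, a replicate block, and leaving out each library. No library of a powder was a copy of another, since their counts differed by a chi-square of 497 to 1642 per degree of freedom. No label gives a batch. The members and lists were chosen with earlier results of these data known. Named were the members, their 3 nearest profiles, and the 3 most abundant miRNAs of each list. Outside this rule, miR-142-3p, miR-150 and miR-296-3p were named too, the last 2 being called by DESeq2's Wald test. Sequences of these miRNAs are not printed here.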

Additional observations from a re-analysis of the deposited data

Results flagged for a closer look

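Over the 6 goat libraries, the log2 ratio of miR-23a to miR-27b in whole B (2.83) stood apart from the others (1.90 to 2.16), with a gap of 0.716 of the whole range, above the critical value of 0.625 for 6 libraries. This was 1 of 11 values or ratios examined in this way, and chance marks about 1 in 20.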

How the results depend on the processing

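Of the 218 values recomputed under alternatives, 194 kept their direction and side of the threshold, or moved by less than the spread between libraries. The counts of miRNAs past the threshold among the 194 equalled that of the main fit. Of the other values, 16 moved further and 8 reversed direction. No member passed the threshold in any fit. The log2 fold change kept its sign in every fit for miR-23a, miR-24-3p and miR-27a-3p. Leaving out 1 library at a time gave -0.34 to 0.10 for miR-27b and -1.17 to 1.01 for miR-27a-5p, whose single reads leave no direction to read, and -0.30 to 0.17 for the log2 ratio of miR-23a to miR-27b. Over all miRNAs 1 passed in edgeR, against 12 with DESeq2's Wald test, 1 with limma-voom, 0 with DESeq2 size factors, 0 with library totals, 2 without a filter on low counts, 4 at a mean of at least 100 CPM and 0 to 1 without each library; the cause was not tested. In bovine over goat, TMM over the 7 libraries gave 0.696 for miR-23a, 0.596 for miR-24-3p, 0.0581 for miR-27a-3p and 1.12 for miR-27b, and DESeq2 size factors gave 1.09, 0.934, 0.0915 and 1.76; these scalings move every miRNA of a library by the same factor.

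With the letter A, B or C as a replicate block, 0 miRNAs passed. Libraries of the same letter deviated together only weakly (correlations across miRNAs of 0.18, 0.14 and 0.06), each highest with its own letter, so the letters are a hint from the data and were not taken as a pairing. With 3 libraries a powder, the exact tests allow no p below 0.1.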
